A study of Drosophila melanogaster with 6 samples.

Results

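The lipid carriers described here are 8 genes, apolpp, Apoltp, Mtp, LpR1, LpR2, NLaz, GLaz and Lsp2, chosen by symbol from the 17807 genes of the count table by a rule that used no measured value. All 8 were found in the table by the symbols that the deposited files pair with the FlyBase identifiers. Poly-A RNA was sequenced from heads of male flies in 6 libraries, 3 control and 3 pum kd, each made from 10 pooled heads. The flies were 6 to 8 days old when the sleep assays began, had been reared at 18 °C, and were moved to 29 °C to switch on the transgenes. Before freezing, flies of each genotype were pooled in tubes and kept for 30 min at 29 °C. The comparison asks which head RNAs differ when Pumilio, an RNA-binding repressor of translation, is reduced in peripheral cells.

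Every fly of either genotype carried esg-Gal4 and UAS-2xYFP over a wild-type chromosome, together with Su(H)GBE-Gal80 and tub-Gal80ts, and the labels give w1118 and y1, sc*, v1, sev21 as the X chromosomes of the cross. The control flies (UAS-mCherryRNAi) carried the VALIUM20-mCherry.RNAi insertion at attP2, directed against a protein that flies lack. The pum kd flies (UAS-pumRNAi) carried the TRiP.HMS01564 insertion at the same site. The driver is active in intestinal stem cells and in the corpus allatum, the gland that makes juvenile hormone, Su(H)GBE-Gal80 blocks it in enteroblasts, and a few neurons may also be targeted. None of the 8 genes was itself targeted.

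Neutral lipids and sterols travel through the insect blood in lipophorin, a lipoprotein particle built in the fat body around the product of apolpp. Mtp, the microsomal triglyceride transfer protein, loads lipid onto apolipoproteins in the endoplasmic reticulum. Apoltp encodes the core of the lipid transfer particle, which moves lipid between cells and lipophorin. LpR1 and LpR2 encode lipophorin receptors of the LDL receptor family. NLaz (Neural Lazarillo) and GLaz (Glial Lazarillo) are lipocalins, small secreted proteins that carry a lipid in a barrel, and are the fly relatives of vertebrate apolipoprotein D. Both are known in flies for resistance to oxidative stress and starvation, and NLaz is known to be induced by JNK signalling. Lsp2 encodes a hexamerin, a storage protein of the blood that is made in fat body.

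None of the 8 genes passed the thresholds for a difference between pum kd and control heads (a log2 difference of 1 or more either way with an adjusted p below 0.05), where 0.103% of the 10696 genes tested did. Normalized counts are given as CPM (gene counts scaled by library total and a TMM factor), with libraries in the order of their replicate numbers. The RNA for Mtp was the one with groups that did not overlap, and its mean CPM was 43.4 ± 1.48 for controls and 57.3 ± 8.19 for pum kd (SD, n = 3 each). Among all genes tested, 10.3% had no overlap between the groups (5.36% with pum kd higher), so 1 of 8 is near the background. For the group as a whole, 6 of the 8 log2 fold changes were above 0, as were 45.6% of those of all genes tested. Their median was 0.23, against -0.03 over all genes tested, and was 0.094 without control replicate 3 and 0.15 without pum kd replicate 2. One gene, Mtp, had an unadjusted p under 0.05 by edgeR, as did 4.95% of all genes (3.28% with the higher value in pum kd), and DESeq2 also called none of the 8.

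The count of 0 was the same under all 16 alternatives. Over all genes, the share called was 0.598% with DESeq2, 0.103% with RLE size factors, 0.552% with no filter on low counts, 0.137% with a filter on mean CPM, 0.131% with a robust fit and 0.131% with a replicate block. It was 0.0935% with sets of libraries as a term, 0.28% and 2.09% after ComBat-seq with edgeR and DESeq2, and 0.206% with a correction for exon length. Without controls 1, 2 and 3 in turn it was 0.108%, 0.269% and 0.009%, and without pum kd 1, 2 and 3 it was 0.072%, 0.0629% and 0.108%.

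**Figure D1:**
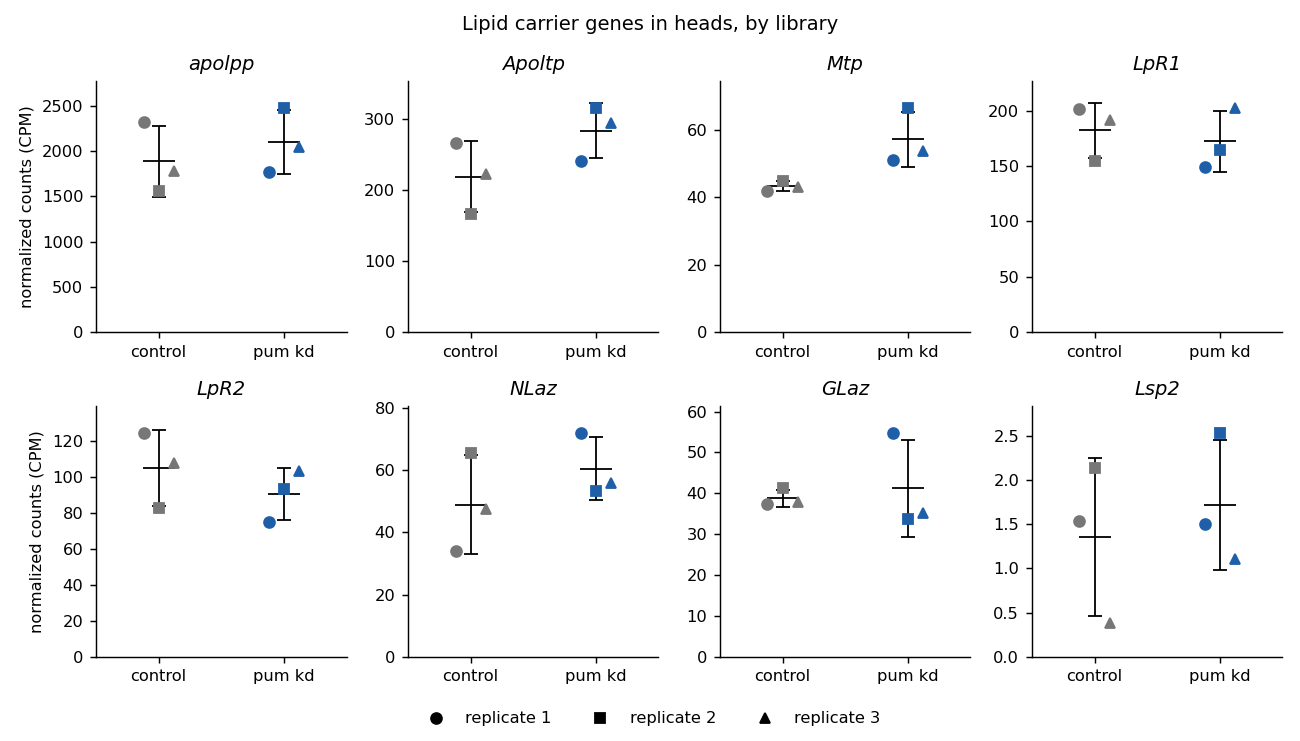
Normalized counts (CPM, linear axes from 0) of the 8 lipid carrier genes in each control and pum kd library, with marker shapes for the replicate numbers, and the mean (long bar) and SD (whiskers) of 3 libraries. Only for Mtp does every pum kd library (51.3 CPM or more) lie above every control library (45.0 CPM or less).

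The gene counts of a library summed to between 33258537 and 39377789. pum itself averaged 261 ± 89.5 CPM in controls against 199 ± 26.8 in pum kd (SD, n = 3 each), with overlapping groups (edgeR adjusted p = 0.993), so the label could not be checked by it in whole heads. Summed markers of photoreceptors (5 genes, 78812.6 to 96414.4 CPM over the 6 libraries) and neurons (6 genes, 3155 to 5299 CPM) were high, as a head sample should have. The 5 midgut, the 4 testis and the 4 accessory gland markers, each list summed by itself, reached at most 1.30 CPM in any library. The 5 muscle markers summed to 3073 to 3895 CPM, the 4 hemocyte markers to 386 to 547 CPM, and the 2 matched oenocyte markers to at most 4.54 CPM. Libraries differed with transcript length. Relative to the mean of the 6 libraries, genes with about 12000 bases of exon were higher by 0.49 on the log2 scale in control replicate 1 and lower, at -0.45, in control replicate 2, and genes of about 1200 bases were at -0.24 and 0.12 in the same libraries. The genes described here span that range, from 1149 bases of exon in NLaz to 13330 in Apoltp. Each comparison is therefore also given, where it matters, after a smooth curve of deviation on exon length was removed from each library, referred to below as the length curve.

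apolpp (FBgn0087002) is a plus-strand gene of chromosome 4 (1060969 to 1077273 in dm6, as all positions here) with 11766 bases of exon. It was at 2321, 1558 and 1783 CPM across controls 1 to 3 and 1774, 2477 and 2050 CPM across pum kd 1 to 3. The highest and the lowest control library enclosed all but one pum kd library, so the groups overlapped. The log2 fold change was 0.15 (standard error, SE, 0.20, edgeR adjusted p = 0.993), with a 95% interval from -0.29 to 0.60. With the length curve it was 0.36 (SE 0.16, edgeR adjusted p = 0.638), and the groups still overlapped. Without pum kd replicate 2, the library with the highest value, the log2 fold change was 0.051. apolpp held 0.200% of all gene counts.

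Apoltp (FBgn0032136, chromosome 2L, 9634179 to 9656026, plus strand) was at 266, 167 and 223 CPM across controls 1 to 3 and 241, 316 and 295 CPM across pum kd 1 to 3. Its pum kd replicate 1 lay below control replicate 1, while the other two pum kd libraries lay above every control. The log2 fold change was 0.38 (SE 0.21, 95% interval -0.09 to 0.84, edgeR adjusted p = 0.993). Apoltp is the longest of the 8 genes, and its value moved with the length curve. At its length the curve was at 0.51, -0.47 and 0.29 in controls 1 to 3 and at -0.32, -0.14 and 0.14 in pum kd 1 to 3. The curve was thus lower on average in pum kd, and removing it raised pum kd against control, as it also did for apolpp. Corrected CPM were then 188, 231 and 183 in control replicates 1, 2 and 3, and 301, 348 and 267 in pum kd replicates 1, 2 and 3, and the groups no longer overlapped. On that scale the log2 fold change was 0.61 (SE 0.14), with an unadjusted p of 0.000961 and 0.125 after edgeR's adjustment, which is above the threshold.

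Mtp (FBgn0266369, chromosome 2L, 20919094 to 20922876, minus strand) was at 42.0, 45.0 and 43.2 CPM across controls 1 to 3 and 51.3, 66.6 and 53.9 CPM across pum kd 1 to 3. The control libraries were close to each other, with a coefficient of variation of 3.42%, and every pum kd library was above them. The log2 fold change of Mtp was 0.40 (SE 0.16, 95% interval 0.04 to 0.76), with an unadjusted p of 0.0340 and 0.886 after edgeR's adjustment, ranking 410th of the genes by p-value. At 2930 bases of exon, Mtp is of middle length, and the length curve left it nearly where it was, at 0.42 (edgeR adjusted p = 0.358).

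The lipophorin receptor genes lie side by side on chromosome 3R, on the minus strand, 883 bases apart, LpR2 (FBgn0051092) from 25698727 to 25740465 and LpR1 (FBgn0066101) from 25741348 to 25763105. They are known to be similar in sequence, which was not examined here. Reads from shared stretches could be dropped or counted for the other gene, so each value may be uncertain, to an extent that was not tested. LpR1 was at 201, 154 and 191 CPM across controls 1 to 3 and 149, 165 and 202 CPM across pum kd 1 to 3. LpR2 was at 124, 82.5 and 108 CPM across controls 1 to 3 and 74.9, 93.4 and 103 CPM across pum kd 1 to 3. For each receptor the groups overlapped, and the library with the lowest value was pum kd replicate 1. The log2 fold change was -0.08 for LpR1 (95% interval -0.50 to 0.33, edgeR adjusted p = 0.995) and -0.21 for LpR2 (95% interval -0.65 to 0.23, edgeR adjusted p = 0.993).

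The direction of LpR1 was not stable. Its log2 fold change was 0.051 with the length curve and 0.052 without pum kd replicate 1. LpR2 stayed below 0, at -0.09 with the length curve, but its size rested on single libraries, at -0.054 without pum kd replicate 1, -0.072 without control replicate 1 and -0.33 without control replicate 2. On that scale the LpR2 groups did not overlap, at 97.8 to 102 corrected CPM in control heads and 88.0 to 96.1 corrected CPM in pum kd heads, a difference that its SE of 0.10 on the log2 scale does not set apart from 0. With the length curve, 3 of the 8 genes (Apoltp, Mtp and LpR2) had groups that did not overlap, where 13.6% of all genes tested did (5.97% with pum kd higher). An unadjusted p under 0.05 by edgeR was then reached by 3 of the 8 (apolpp, Apoltp and Mtp) and by 7.76% of all genes.

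NLaz (FBgn0053126, chromosome 2L, 1359837 to 1361821, minus strand) was at 33.9, 65.5 and 47.3 CPM across controls 1 to 3 and 72.0, 53.4 and 55.7 CPM across pum kd 1 to 3. Control replicate 2 lay above 2 of the 3 pum kd libraries. The log2 fold change was 0.30 (SE 0.24, 95% interval -0.22 to 0.83, edgeR adjusted p = 0.993). It rested on the control libraries, and was 0.10 without control replicate 1, the lowest, and 0.60 without control replicate 2, the highest. With the length curve the log2 fold change of NLaz fell to 0.23 (SE 0.15, edgeR adjusted p = 0.834), and the groups still overlapped.

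GLaz (FBgn0033799, chromosome 2R, 13163959 to 13168032, minus strand) was at 37.4, 41.2 and 37.9 CPM across controls 1 to 3 and 54.8, 33.7 and 35.2 CPM across pum kd 1 to 3. Pum kd replicate 1 was the highest of the 6 libraries and the other 2 pum kd libraries were the lowest. The log2 fold change of 0.09 (95% interval -0.37 to 0.55, edgeR adjusted p = 0.995) turned to -0.13 without pum kd replicate 1 and to -0.024 with the length curve. The 8 glial markers, of which none passed both thresholds, summed to 1563 to 1597 CPM in control heads and 1551 to 1853 CPM in pum kd heads. Of these 8, 5 were above 0 and 3 below, with a median log2 fold change of 0.05. The largest difference among them was that of the astrocyte gene alrm, from 32.9 ± 0.920 to 63.8 ± 6.99 CPM (SD, n = 3 each, log2 fold change 0.95, edgeR adjusted p = 0.0699, and called with no filter on low counts at 0.00462). The adjusted p of alrm was 0.0123 by edgeR with the length curve and 1.85e-05 by DESeq2. It was 4.81e-09 by DESeq2 after ComBat-seq. Each of these 3 settings had a log2 fold change under 1. The part of glial RNA in the values of GLaz was not tested, and in whole heads fewer cells of a type and less RNA per cell cannot be told apart.

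Lsp2 (FBgn0002565, chromosome 3L, 12129393 to 12131869, plus strand) was nearly silent in these heads. It had 51, 75 and 13 counts across controls 1 to 3 and 50, 95 and 40 counts across pum kd 1 to 3, or 0.382 to 2.54 CPM. Its log2 fold change of 0.34 had an SE of 0.86 and a 95% interval from -1.55 to 2.24 (edgeR adjusted p = 0.995), so even a difference of 1 on the log2 scale in either direction was not detectable at this depth. Without control replicate 3, the lowest library, it was -0.10, and without pum kd replicate 2, the highest, it was -0.01. Counting error alone understates this uncertainty. Among genes whose other libraries predicted 20 to 40 counts, 12.9% to 28.0% had 0 counts in a given library. An antisense gene, asRNA:CR11538, covers 2096 of the 2477 exon bases of Lsp2 and had 0 counts in every library. The counting told strands apart, since 104 of 143 genes lying wholly under exons of the other strand had counts.

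**Figure D2:**
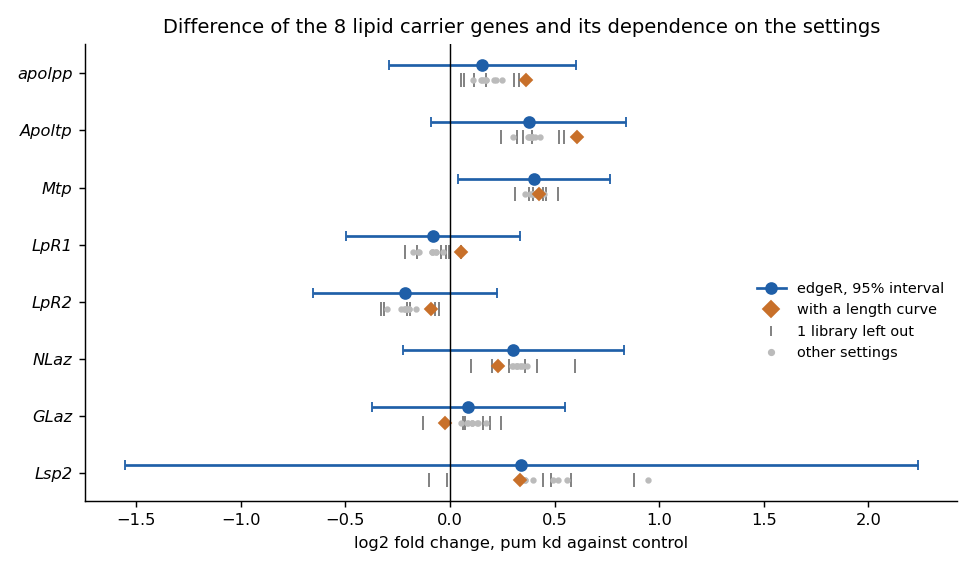
Log2 fold change of pum kd against control for the 8 lipid carrier genes by edgeR (blue circles with 95% intervals), with the length curve (orange diamonds), with 1 library left out (grey ticks) and under the other settings (light dots). The interval of Mtp, from 0.04 to 0.76, lies above 0 before adjustment over all genes, that of Lsp2 is the widest, and LpR1, GLaz and Lsp2 have settings on either side of 0.

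For the 7 genes other than Lsp2 no 95% interval, before adjustment over genes, reached beyond 0.84 on the log2 scale in either direction, a 1.79-fold difference. The widest reach was 0.91 with the length curve (Apoltp), 0.97 with a replicate block (Apoltp) and 1.06, or 2.08-fold, with a library left out (Apoltp without pum kd replicate 1). These intervals do not show that the genotypes were alike.

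Compared per kilobase of exon, apolpp stood far above the rest. It was at 160 ± 33.3 CPM per kilobase in control heads and 179 ± 30.1 in pum kd heads (SD, n = 3 each), higher than 96.3% of the genes tested. NLaz followed at 42.6 ± 13.8 and 52.5 ± 8.83 CPM per kilobase, then GLaz at 31.9 ± 1.70 and 33.9 ± 9.72. LpR1 (27.5 ± 3.72 and 25.9 ± 4.11), Apoltp (16.4 ± 3.75 and 21.3 ± 2.91), LpR2 (19.0 ± 3.83 and 16.4 ± 2.58) and Mtp (14.8 ± 0.506 and 19.5 ± 2.79) came next, in the order of their means over the 6 libraries. Lsp2 was last at 0.547 ± 0.361 and 0.693 ± 0.297 CPM per kilobase. Over the 6 libraries the range of apolpp was apart from that of NLaz, and that of Mtp from that of Lsp2. The ranges of the other neighbours in this order overlapped, and Apoltp was above LpR2 in 3 libraries and below it in 3.

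The 8 genes did not vary together across the libraries. Over the 6 libraries, which differ in their length curves, the highest correlations of log2 CPM were between LpR1 and LpR2 (Pearson's r = 0.93, Spearman's rho = 0.83) and between apolpp and Apoltp (r = 0.89, rho = 0.89). The lowest was between LpR2 and NLaz (r = -0.95, rho = -0.94). Within the control group the 4 longest genes (apolpp, Apoltp, LpR1 and LpR2) were each highest in control replicate 1 and lowest in control replicate 2. NLaz, the shortest gene, had the reverse order. The fitted length curve at the length of Apoltp was 0.51, -0.47 and 0.29 in control replicates 1, 2 and 3, and at the length of NLaz it was -0.25, 0.13 and -0.03. In pum kd replicate 2 apolpp and Apoltp lay against the curve, which was at -0.12 for apolpp where the gene itself was at 0.33, while in pum kd replicate 1 curve and gene were both below 0 (-0.32 and -0.15).

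**Figure D3:**
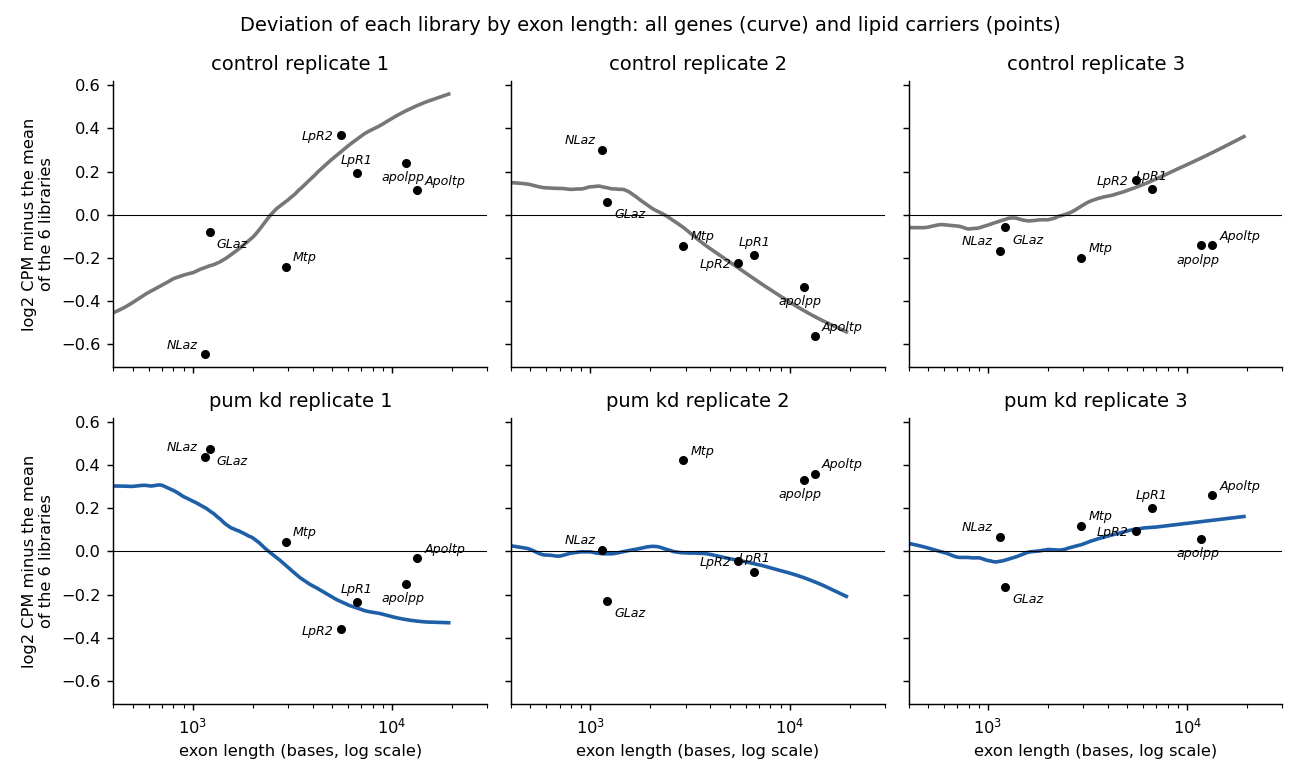
Deviation of log2 CPM from the mean of the 6 libraries against exon length (log axis), with the curve fitted to all genes in each library and 7 of the lipid carrier genes as points (Lsp2, with few counts, is left out). In control replicates 1 and 2 the curves slope in opposite directions, and in pum kd replicate 2 Mtp (0.42), Apoltp (0.36) and apolpp (0.33) lie well above a nearly flat curve.

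By a rule that took the highest correlations over the 6 libraries among the 7153 genes averaging 10 CPM or more, the genes most like apolpp were CG9281 (r = 0.99, rho = 0.94), Cdc5 (r = 0.99, rho = 1) and Ir62a (r = 0.99, rho = 1). Apoltp was 91st on that list, with r = 0.89. With 6 libraries and that many genes, correlations of this height are a description of these libraries only.

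Because ratios within a library of genes of like length are little touched by the length curve, 3 such ratios were computed after the values of the genes had been seen. The ratio of apolpp to Apoltp counts was 8.72, 9.35 and 7.99 in control replicates 1, 2 and 3, and 7.37, 7.84 and 6.96 in pum kd replicates 1, 2 and 3. The groups did not overlap, and the mean ratio in pum kd heads was 0.851 of that in control heads. An exact permutation test gave a two-sided p of 0.10, the smallest that 3 libraries against 3 allow, and an adjusted p of 0.30 over the 3 ratios. In the authors' batch-corrected values the groups of this ratio overlapped, at 8.18 to 8.84 in control heads and 6.96 to 8.53 in pum kd heads. The ratio of LpR1 to LpR2 was 1.76 ± 0.128 and 1.91 ± 0.125, and that of NLaz to GLaz 1.25 ± 0.341 and 1.49 ± 0.156 in control and pum kd heads (SD, n = 3 each), with exact permutation p-values of 0.30 and 0.40.

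**Figure D4:**
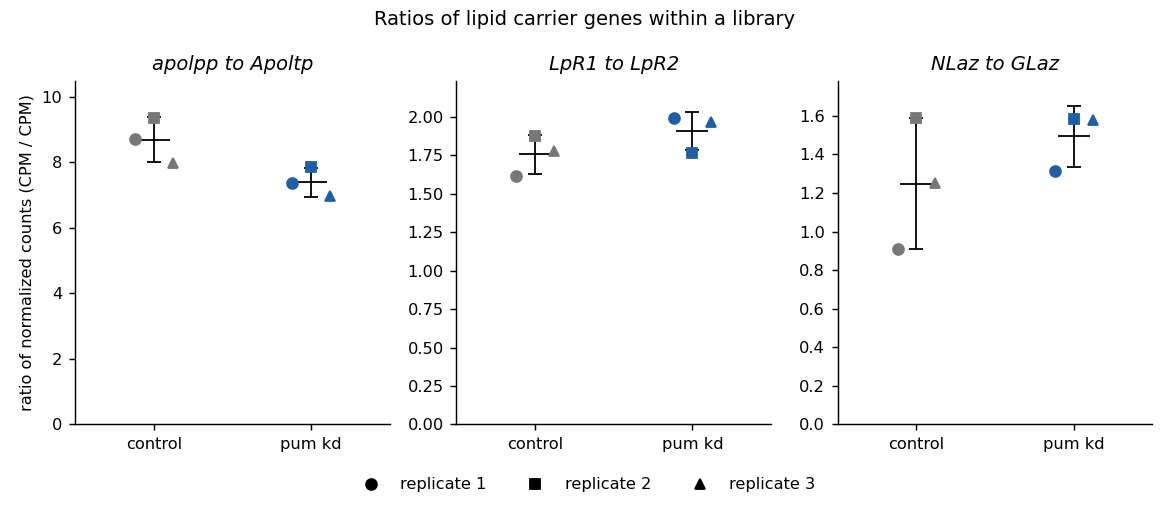
Ratios of normalized counts within each library for 3 pairs of lipid carrier genes (linear axes from 0), with marker shapes for the replicate numbers, and the mean (long bar) and SD (whiskers) of 3 libraries per group. The ratio of apolpp to Apoltp is at most 7.84 in each pum kd library and at least 7.99 in each control library, and the other ratios overlap between groups.

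The authors' correction for batch divides the libraries into 2 sets, control replicates 1 and 2 with pum kd replicate 1, and control replicate 3 with pum kd replicates 2 and 3. This division, which the labels do not name, gave back 100% of the authors' normalized values within a relative tolerance of 1e-06. Within the sets, the difference of mean log2 CPM for Mtp was 0.24 and 0.47, and for Apoltp it was 0.19 and 0.45. For LpR2 it was -0.44 and -0.13, for LpR1 -0.24 and -0.07, and for NLaz 0.61 and 0.20. The sets differed in direction for apolpp, at -0.10 and 0.34, for GLaz, at 0.48 and -0.14, and for Lsp2, at -0.27 and 2.13. Each set holds 1 library of a group, so these values have no test.

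In the authors' batch-corrected normalized signal, Mtp and Apoltp were the 2 of the 8 genes whose groups did not overlap, where 18.2% of all genes did (9.57% with pum kd higher, as in both). Mtp was at 1428 to 1616 in control heads and at 1775 to 2323 in pum kd heads, and Apoltp at 6385 to 9211 and at 9241 to 10864.9, on the scale of counts divided by size factors. After ComBat-seq by these sets, the adjusted p was 0.279 for Mtp and 0.349 for Apoltp by edgeR and 0.223 and 0.262 by DESeq2.

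The wider pathway was read from 7 lists, 51 genes in all, of which 44 could be tested. None passed both thresholds in edgeR, 19 were above 0 and 25 below, and their median log2 fold change was -0.05. With the length curve the balance turned, to 23 above 0 and 21 below. The groups did not overlap for 3 of the 44, and an unadjusted p under 0.05 was also reached by 3, beside 10.3% and 4.95% of all genes. Both counts, and the 19 and 23 genes above 0, include the sterol transporter gene Npc1b, which passed the filter on low counts only through its pum kd libraries. The others were dsb and bsk for the non-overlap, and dsb and Npc2g for the unadjusted p. The other receptors of the LDL family (mgl, LRP1, arr, Lrp4) and their folding factor boca were all below 0, from -0.30 for Lrp4 to -0.05 for boca, with overlapping groups. With the length curve 3 of these 5 were above 0.

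Among the class B scavenger receptors, which take up lipids and lipoproteins, 5 of 8 were above 0. The highest was dsb (debris buster), at 51.0, 42.1 and 44.9 CPM across controls 1 to 3 and 84.1, 81.0 and 66.0 CPM across pum kd 1 to 3. Its groups did not overlap, with a log2 fold change of 0.74 (SE 0.17), an unadjusted p of 0.00115 and 0.307 after edgeR's adjustment, the lowest of the 44. The adjusted p of dsb was 0.0406 by edgeR with no filter, 0.0102 by DESeq2 and 6.5e-05 by DESeq2 after ComBat-seq, each with a log2 fold change under 1. The lowest of the list was Snmp2, at -0.17. Of the 10 Niemann-Pick genes, which move sterols out of lysosomes and across the gut wall, 8 were tested. Of these, 4 were above 0 and 4 below (2 and 6 with the length curve), from the near-silent Npc2e at -0.34 (SE 1.57) upwards. Those above 0 include Npc1b in both settings. Npc2g was at 232 ± 68.3 and 338 ± 67.2 CPM in control and pum kd heads (SD, n = 3 each), with overlapping groups. Its log2 fold change was 0.54, with an unadjusted p of 0.0477 and 0.978 after edgeR's adjustment. By DESeq2 the adjusted p of Npc2g was 0.626, and 0.00624 after ComBat-seq, both with a log2 fold change under 1. The gut sterol transporter gene Npc1b was listed at 0 counts throughout the controls, and pum kd 1 to 3 held 25, 25 and 17. The pum kd mean was 7.15-fold a floor of 3 counts per library, which covers counting error only and gives no lower bound on the difference. The adjusted p of Npc1b was 0.635 with edgeR and 0.0457 with DESeq2. Npc1b passed the filter on low counts only through its pum kd libraries, and 0 counts were common at this depth. Nothing is therefore drawn from that fold, from its direction, from either p or from its non-overlap.

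Of the storage and yolk proteins and other lipid transfer proteins, 6 of 9 could be tested, 5 above 0 and 1 below, from Yp3 at -0.08 to Yp1 at 1.21, the latter whose libraries ran from 0 to 5.60 CPM with overlapping groups. The fat body marker genes Lsp1gamma and Fbp1 were at or near 0, and of the 6 fat body markers tested 3 were above 0 and 3 below, with a median of -0.07. They ran from tobi, at -0.37, to Ilp6, an insulin-like peptide gene, at 0.18, both with overlapping groups. All 7 fat body markers together summed to 121 to 135 CPM in control heads and 100.3 to 142 CPM in pum kd heads, and their part in the values of apolpp, Apoltp and Mtp was not tested. The lipocalin Karl and the fatty acid binding gene fabp were at 0.14 and -0.06. Of 6 genes tested for the assembly, binding and breakdown of lipoproteins, 1 was above 0, Pdi, whose vertebrate counterpart is a subunit of the Mtp complex, at 0.16, and 5 were below, down to Fur2 at -0.26. With the length curve 3 of these 6 were above 0 and 3 below. Of the 9 JNK pathway genes, 3 were above 0 and 6 below, from egr, the TNF ligand, at -0.25 to Jra at 0.10. puc, a target gene of the pathway, was at 93.2 ± 2.80 and 84.8 ± 11.6 CPM in control and pum kd heads (SD, n = 3 each).

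**Figure D5:**
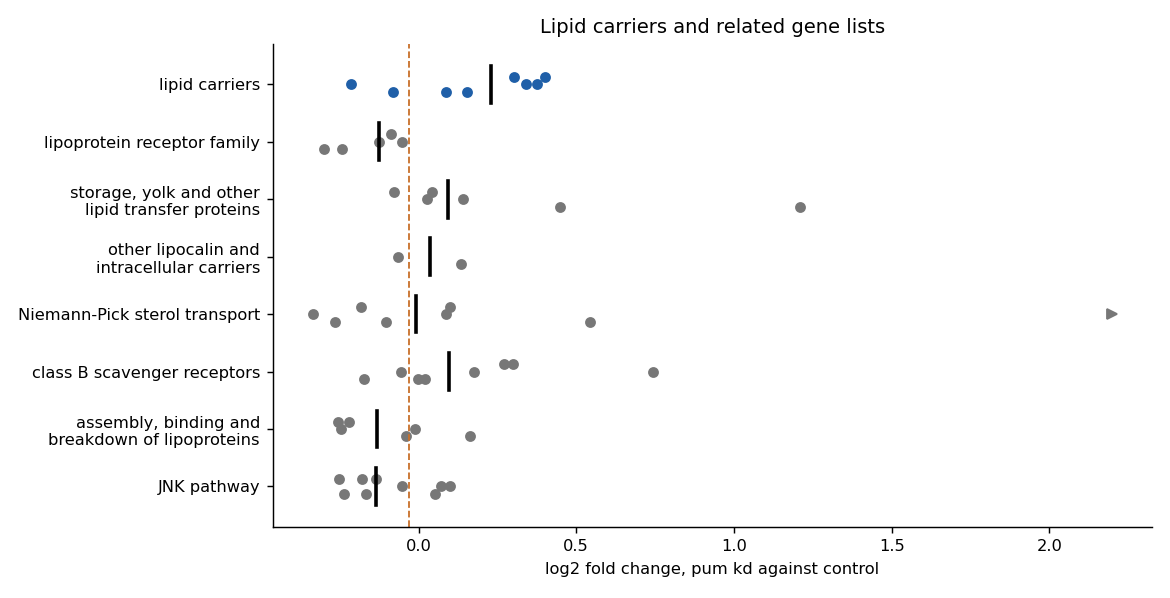
Log2 fold change of pum kd against control for each tested gene of the lipid carriers (blue) and of 7 related lists (grey), with the median of each list (black bar) and of all genes tested (dashed line, -0.03). The median of the lipid carriers, 0.23, was the highest of the 8, and Npc1b, at 0 in the controls, is drawn as a triangle at the right edge.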

How the data were processed

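RNA was measured in 3 control and 3 pum kd libraries of male heads, grouped by their titles. Per the labels and the study's methods, the authors checked reads with FastQC 0.12.1, trimmed them with Trimmomatic 0.39, and aligned them to dm6 and counted them per gene with STAR 2.7.11b; the annotation is not given in the sources used here. The authors deposited raw counts, and in a second table a normalized signal, counts after ComBat-seq divided by DESeq2 size factors. That table's fold changes and p-values were not used. Rows naming no gene, 11.5% to 14.2% of a library, were left out. Positions and exon lengths came from the Ensembl annotation of dm6, which held 17710 of the 17807 genes.

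The quasi-likelihood test of edgeR 4.0.16 (R 4.3.3) was run on the 10696 genes that filterByExpr kept, scaled by TMM, with p-values adjusted over all of them by Benjamini-Hochberg; the code was tested on simulated data. Nothing says that libraries came from separate cultures or separate pools of flies, so p-values measure the spread between these libraries. The 8 genes, the lists and the thresholds were chosen with earlier results of these data known. The genes named are the 8, the extremes of each list, pum, the 3 genes most like apolpp, and genes a sentence needed. Named after their values were seen are alrm, tobi, Ilp6, puc, bsk and Npc2g.

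Alternatives were DESeq2 1.42.0, RLE size factors, other filters, a robust fit, a replicate block, the 2 sets of libraries as a term or through ComBat-seq (sva 3.50.0), a length curve (loess, span 0.3) and each library left out. No pair of libraries within a group agreed within sampling noise (chi-square per degree of freedom at least 44.0), and pairs across the groups were not checked. Reads carry no molecular identifiers, so floors cover counting error only. Sequences were not analysed here.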

Additional observations from a re-analysis of the deposited data

How the results depend on the processing

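None of the 8 lipid carrier genes was called under any of the 16 alternatives, and their median log2 fold change, 0.23, lay between 0.094 (without control 3) and 0.29, with 0.15 without pum kd 2. apolpp, Apoltp, Mtp, LpR2 and NLaz kept their direction under all 16. With the length curve LpR1 turned to 0.051 and GLaz to -0.024. With 1 library left out, LpR1 ranged from -0.21 to 0.052, GLaz from -0.13 to 0.24 and Lsp2 from -0.10 to 0.88, and the sign turned when pum kd 1 (LpR1 and GLaz), control 3 or pum kd 2 (both Lsp2) was dropped. The count of calls over all genes, 11, was 64 with DESeq2, 73 with no filter on low counts, 29 after ComBat-seq with edgeR, 217 after ComBat-seq with DESeq2 and 22 with the length curve. Dropping 1 library gave between 1 (control 3) and 30 (control 2), with 7 for pum kd 2. The cause was not tested. The number of the 8 genes whose groups did not overlap was 1 (10.3% of all genes), and became 3 with the length curve (13.6%) and 2 in the authors' batch-corrected signal (18.2%). That last alternative was chosen after seeing the data. The replicate numbers are not said to pair the libraries. The deviations of same-numbered libraries correlated at -0.087, -0.021 and 0.014, and none of the 6 libraries correlated best with the library of its own number. With so few libraries a group, these correlations cannot exclude a pairing. With a replicate block 14 genes were called, none of them a lipid carrier.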
